A study of Arabidopsis thaliana with 6 samples.

Results

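The genes described here are 10 Arabidopsis thaliana genes that the TAIR10.1 annotation names class I glutamine amidotransferase-like: 5 of the gamma-glutamyl peptidase (GGP) type and 5 of the DJ-1 type, out of 30424 genes counted. They were taken by gene identifier, GGP1 (AT4G30530), AT4G30540, GGP3 (AT4G30550), AT2G23960 and AT2G23970 on the GGP side and DJ1A (AT3G14990), DJ1B (AT1G53280), DJ1D (AT3G02720), DJ1E (AT2G38860, also called YLS5) and DJ1F (AT3G54600) on the DJ-1 side. The set was proposed with the RGF1-against-Mock values of these same libraries known, so the values of that contrast are given for the 10 genes as a description and not as a test of the set. RNA-seq read counts came from the dissected root meristematic zone of Col-0 seedlings homozygous for the transgene HYP2-GFP, 6 days after germination, held for 1 h in liquid medium with water (Mock) or with 100 nM RGF1, a secreted peptide that maintains the root meristem. Each group had 3 libraries, each from 20 root sections, and both groups carry the reporter, whose fluorescence guided the cut. The titles number the replicates 1 to 3 in each group, and the labels do not say whether these were separate cultures, so the spread between them may be partly technical.

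GGP1 and GGP3 are peptidases that remove the gamma-glutamyl residue from glutathione conjugates, a step in the synthesis of glucosinolates and of camalexin, the sulfur-containing defence compounds of the cabbage family. Proteins of the DJ-1 type are best known as protectors against oxidative stress, and several plant members act as glyoxalases that convert methylglyoxal, a toxic by-product of sugar breakdown, without needing glutathione. Both types share the fold of glutamine amidotransferases.

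GGP1, AT4G30540 and GGP3 stand in tandem on the plus strand of chromosome 4 (TAIR10.1 positions 14920376 to 14922519, 14923327 to 14925195 and 14925407 to 14926861), with gaps of 807 and 211 bp. AT2G23960 (10195910 to 10197741) and AT2G23970 (10199675 to 10201095) are neighbours on chromosome 2, 1933 bp apart. Each of the 5 GGP genes has 3 exons and codes for 248 to 251 residues. The DJ-1 genes lie apart: DJ1B on chromosome 1 (19864726 to 19867389), DJ1E on chromosome 2 (16232859 to 16235367), and DJ1D (586224 to 588365), DJ1A (5047376 to 5049971) and DJ1F (20210792 to 20213172) on chromosome 3. They have between 4 and 8 exons and code for 388 to 438 residues. The following 90 bases of coding sequence are the ungapped stretch where AT4G30540 and GGP3 together were most like GGP1. They are shown because the results turn on telling these copies apart by their reads. Capitals mark bases that differ from GGP1, and the bases are 529 to 618 of the GGP1 coding sequence, 526 to 615 of AT4G30540 and 541 to 630 of GGP3, read from the TAIR10.1 genome of RefSeq.
GGP1: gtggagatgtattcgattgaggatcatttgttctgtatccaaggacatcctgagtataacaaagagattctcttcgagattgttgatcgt
AT4G30540: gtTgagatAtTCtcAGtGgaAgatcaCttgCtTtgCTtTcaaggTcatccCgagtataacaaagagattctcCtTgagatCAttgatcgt
GGP3: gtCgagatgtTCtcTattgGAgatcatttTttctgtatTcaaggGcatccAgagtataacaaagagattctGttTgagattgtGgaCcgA
Even there, AT4G30540 differed from GGP1 at 20 bases and GGP3 at 15.

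The predicted proteins of the 5 GGP genes were 57.5% to 78% identical over the 10 pairs, those of the 5 DJ-1 genes 23.2% to 81.1%, and pairs between the types 22.4% to 30.6%. The longest run of identical bases shared by any pair of transcripts was 24 bp within the GGP type, 29 bp within the DJ-1 type (DJ1A with DJ1B) and 13 bp between the types. At a minimum of 95% identity over 100 bp no other transcript matched a member apart from annotated overlaps. GGP3 overlaps the opposite-strand gene AT4G30560 by 28 bp, which had 122 counts in the Mock libraries together and 183 in the RGF1 libraries. DJ1D overlaps AT3G02730 on the opposite strand by 100 bp, with 219 and 120 counts. The use of strand in counting is not given in the sources used here, so a few reads of GGP3 and DJ1D may belong to those neighbours.

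Libraries held 5421243 to 9495012 counts in total, and levels are given as CPM (counts relative to library size, scaled by TMM) or, between genes, as RPKM (CPM per kilobase of annotated exon). As a check of the tissue, 7 of 8 root meristem markers had a mean above 1 CPM, and the markers summed to 233 to 348 CPM in Mock and 284 to 305 CPM in RGF1 libraries. The exception was WOX5, which marks the quiescent centre and had at most 0.314 CPM in a library. All 4 root hair, 3 root cap and 4 shoot photosynthesis markers also had a mean above 1 CPM. That threshold therefore does not tell the meristem from other tissues. Root hair markers summed to 8.62 to 36.5 CPM in Mock and 13.3 to 43.3 CPM in RGF1 libraries, and root cap markers to 3.92 to 19.1 and 2.4 to 18.3 CPM. The 4 shoot photosynthesis markers summed to 146 to 585 CPM in Mock and 23.6 to 318 CPM in RGF1 libraries. Of these 19 markers 18 were tested, and 0 were called between the groups in edgeR, where 2 had an unadjusted p under 0.05. DESeq2 called 1, the root hair gene RHS19, higher after RGF1, and limma voom and the block fit 0 each. Their part in the results below was not tested. In whole pieces of tissue, a change in the number of cells of a type and a change in RNA per cell cannot be told apart.

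Of the 10 genes, 7 passed the filter on low counts and 3 were at or near 0. AT4G30540, the middle gene of the tandem, had 0 counts in the 6 libraries, where a floor of 3 counts corresponds to 0.313 to 0.565 CPM. AT2G23970 had 5 counts in RGF1 replicate 2 and 0 elsewhere, and DJ1F had 1 count in Mock replicate 3, 1 in RGF1 replicate 2 and 0 elsewhere. For these genes no fold is given.

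**Figure D1:**
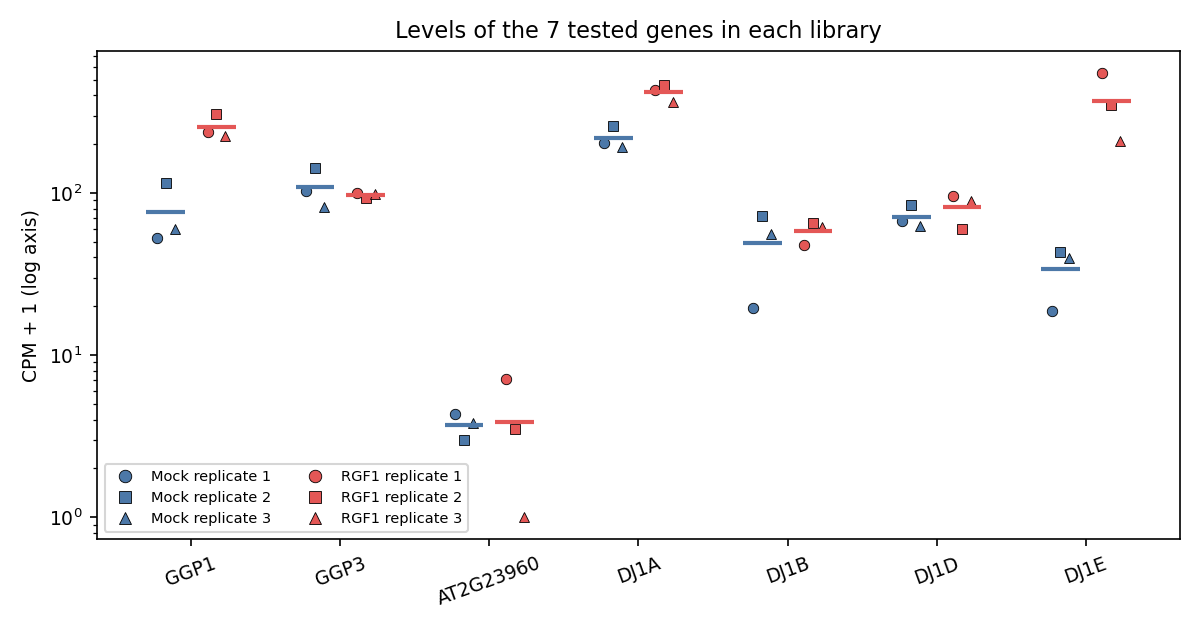
CPM plus 1 on a log axis for the 7 genes that passed the filter, with 1 point per library (blue Mock, red RGF1, symbol by replicate number) and a bar at the group mean. The RGF1 points of GGP1, DJ1A and DJ1E lie above all their Mock points, and those of GGP3, AT2G23960, DJ1B and DJ1D overlap with Mock.

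Among the GGP genes, GGP1 was higher after 1 h of RGF1, while its tandem neighbour GGP3 overlapped between the groups. GGP1 had 51.8, 114 and 59.3 CPM in Mock replicates 1 to 3 and 235, 306 and 222 CPM in RGF1 replicates 1 to 3. The lowest RGF1 library was thus above the highest Mock library, Mock replicate 2. The group means were 75.2 ± 34.3 and 254 ± 45.1 CPM (SD, n = 3 each), and the edgeR log2 fold change was 1.76 ± 0.32 (SE), or 3.38-fold. GGP3, which can act beside GGP1 on glutathione conjugates, had 101, 141 and 80.9 CPM in Mock and 98.6, 92.5 and 97 CPM in RGF1 replicates 1 to 3. Its groups overlapped, and the RGF1 libraries lay inside the Mock range, and its log2 fold change of -0.17 ± 0.26 (SE) had an interval of 2 SE on each side from -0.69 to 0.36. AT2G23960, the member closest to GGP1 in protein sequence (72.7% identity), was a low gene with 31, 18 and 18 counts in the Mock libraries and 59, 17 and 0 in the RGF1 libraries. Its groups overlapped and its log2 fold change of 0.11 ± 1.11 (SE) leaves the direction undetermined at this depth.

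The division of reads within the GGP type, a measure that does not depend on the scaling of libraries, differed between the groups. GGP1 took 33.1%, 44.5% and 41.4% of the GGP reads in Mock replicates 1 to 3, with Wilson 95% intervals reaching from 30.7% to 46.6%. In RGF1 replicates 1 to 3 its share was 69.2%, 76.2% and 69.6%, with intervals from 67.3% to 77.7%. These intervals treat each read as independent and leave out the spread between replicates. Reads amplified without molecular identifiers are not independent molecules, so the intervals may be too narrow even for counting error. Per kilobase, GGP1 stood at 0.466, 0.743 and 0.669 times the level of GGP3 in the Mock libraries and at 2.18, 3.02 and 2.09 times in the RGF1 libraries, so GGP3 was the higher of the pair in each Mock library and GGP1 in each RGF1 library. The summed level of the 5 GGP genes was 186 ± 62.4 CPM in Mock and 353 ± 43 CPM in RGF1 libraries (SD, n = 3 each).

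**Figure D2:**
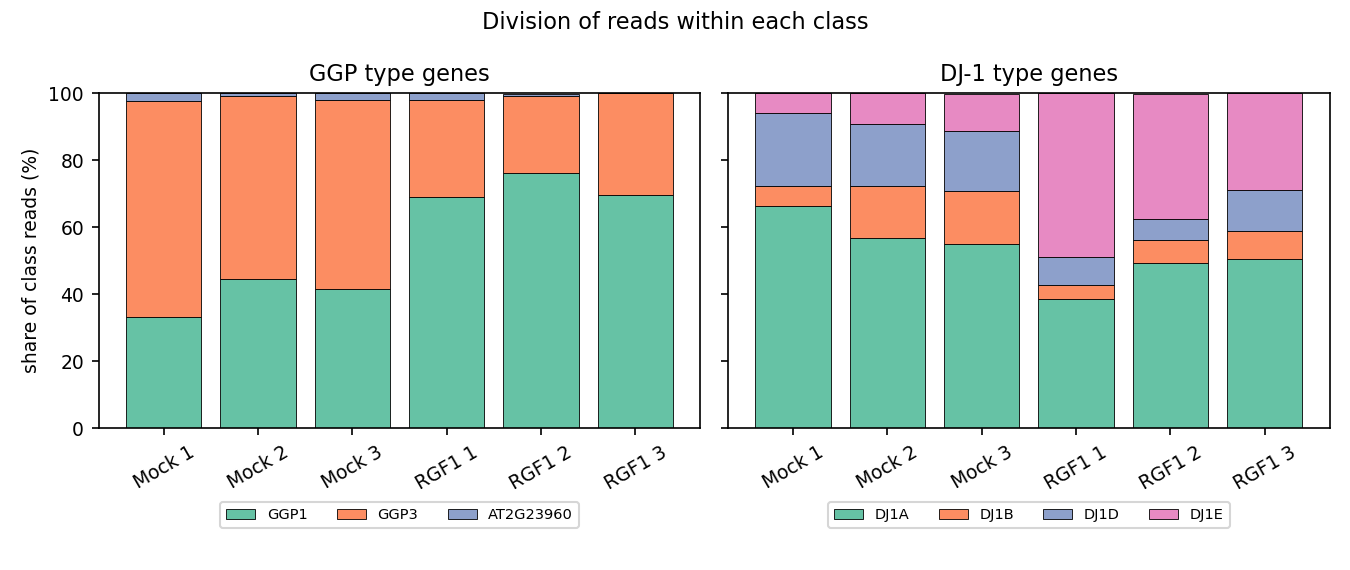
Share of the reads of each class, in percent, taken by each tested gene in each of the 6 libraries, with GGP genes on the left and DJ-1 genes on the right. GGP1 takes 33.1% to 44.5% of the GGP reads in Mock and 69.2% to 76.2% in RGF1 libraries, and DJ1E takes 5.84% to 11.3% and 28.9% to 48.9% of the DJ-1 reads.

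Among the DJ-1 genes, DJ1E had the largest difference of the 10 genes and DJ1A a smaller one, while DJ1B and DJ1D overlapped between the groups. DJ1E, whose other name YLS5 comes from its transcript in yellowing leaves, had 17.7, 42.2 and 38.9 CPM in Mock and 548, 349 and 209 CPM in RGF1 replicates 1 to 3. The groups were well separated, and the RGF1 libraries spread over more than a factor of 2, with replicate 1 the highest. The means were 32.9 ± 13.3 and 368 ± 170 CPM (SD, n = 3 each), a log2 fold change of 3.49 ± 0.41 (SE), or 11.2-fold, which ranked 68 from the top of 16737 tested genes, against rank 306 for GGP1 and 1001 for DJ1A. DJ1A, a homologue that protects plant cells under oxidative stress, had 201, 259 and 190 CPM in Mock and 431, 460 and 365 CPM in RGF1 replicates 1 to 3. Its groups did not overlap, and its log2 fold change was 0.95 ± 0.24 (SE), or 1.93-fold.

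DJ1B, the closest relative of DJ1A (81.1% protein identity), had 18.4, 71 and 54.4 CPM in Mock and 47, 64.1 and 60.8 CPM in RGF1 replicates 1 to 3. Mock replicate 1 was low, the other 5 libraries overlapped, and the log2 fold change was 0.26 ± 0.41 (SE), with an interval of 2 SE on each side from -0.56 to 1.07. DJ1D, one of the DJ-1 glyoxalases, had 65.7, 83.6 and 61.6 CPM in Mock and 95, 58.7 and 87.8 CPM in RGF1 replicates 1 to 3, which overlapped. Its log2 fold change was 0.20 ± 0.28 (SE), and the interval of 2 SE on each side ran from -0.36 to 0.75. The closest relative of DJ1E is DJ1F (75.9% protein identity), which was at the floor in both groups. The closest relatives in the set of GGP1, DJ1A and DJ1E thus had groups that overlapped or were near 0. That is the usual case, since 7.3% of tested genes separated upward and 6.18% downward. AT2G23960, the closest relative of GGP1, was also too low to show a direction. No pattern among relatives is read from this.

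DJ1A gave most DJ-1 reads in the Mock libraries, at 66.4%, 56.8% and 55% in replicates 1 to 3, and 38.4%, 49.4% and 50.6% in the RGF1 libraries. The share of DJ1E was 5.84%, 9.26% and 11.3% in Mock and 48.9%, 37.4% and 28.9% in RGF1 replicates 1 to 3, with Wilson 95% intervals from 5.03% to 12.7% and from 27.5% to 49.8%. In RGF1 replicate 1 the reads of DJ1E outnumbered those of DJ1A, and in the other 2 RGF1 libraries they did not. DJ1E has the longer exons, and per kilobase it stood at 1.02, 0.61 and 0.459 times DJ1A in RGF1 replicates 1 to 3. The shares of DJ1B and DJ1D ranged from 6.08% to 15.8% and 17.9% to 21.7% in Mock and from 4.19% to 8.42% and 6.3% to 12.1% in RGF1 libraries, although their CPM did not separate the groups. The summed DJ-1 level was 368 ± 78.9 CPM in Mock and 925 ± 199 CPM in RGF1 libraries (SD, n = 3 each).

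Per kilobase of exon, the order of the 7 genes was the same in the 3 Mock libraries: DJ1A, GGP3, GGP1, DJ1D, DJ1B, DJ1E and AT2G23960. The Mock means were 127 ± 21.7, 97.1 ± 27.4, 61.9 ± 28.2, 45.2 ± 7.52, 27.7 ± 15.5, 15.5 ± 6.25 and 2.41 ± 0.584 RPKM (SD, n = 3). Neighbours in that order had overlapping ranges over the libraries, apart from DJ1E, whose lowest Mock library at 8.31 RPKM was above the highest of AT2G23960 at 2.94 RPKM. After RGF1 the means were 245 ± 28.3 RPKM for DJ1A, 209 ± 37.2 for GGP1, 173 ± 80.1 for DJ1E, 86.6 ± 2.85 for GGP3, 51.7 ± 12.3 for DJ1D, 33.1 ± 5.25 for DJ1B and 2.55 ± 2.74 for AT2G23960 (SD, n = 3). DJ1E thus went from place 6 in each Mock library to place 1, 3 and 3 in RGF1 replicates 1 to 3, and the ranges of DJ1A, GGP1 and DJ1E overlapped. In Mock the level of DJ1E stood at the percentile 61.6 of tested genes by mean CPM, that of GGP1 at 82, GGP3 at 88.2 and DJ1A at 95.2, so none of these was a silent gene before the peptide.

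**Figure D3:**
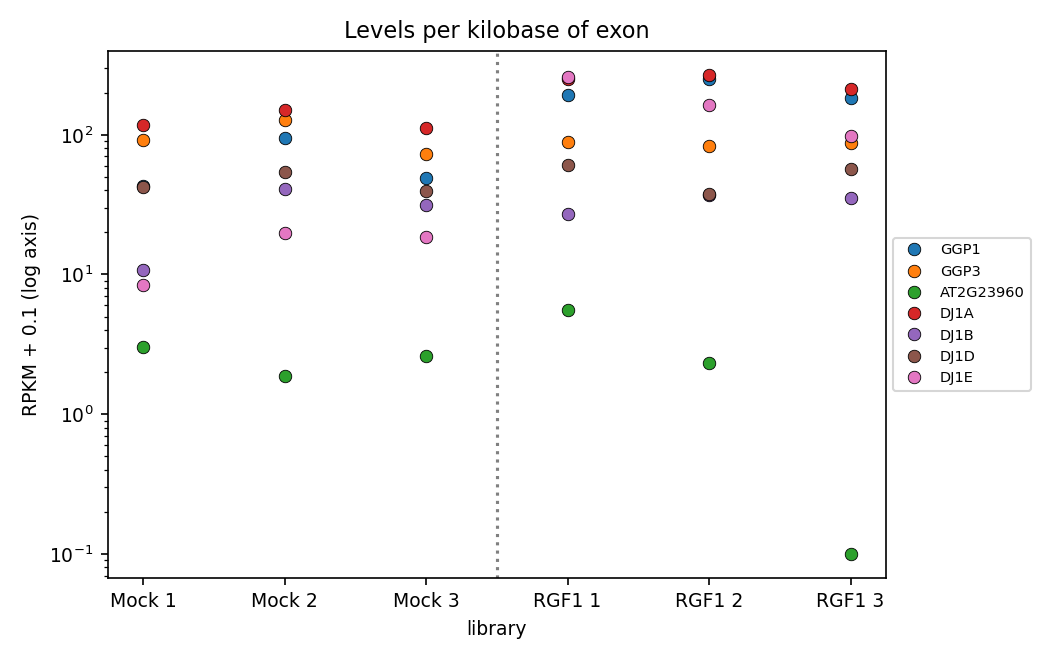
RPKM plus 0.1 on a log axis for the 7 tested genes in the 3 Mock libraries (left of the dotted line) and the 3 RGF1 libraries. DJ1E lies between 8.31 and 19.8 RPKM in Mock and between 98.1 and 257 RPKM in RGF1 libraries, and GGP3 between 73 and 127 and between 83.4 and 88.9 RPKM.

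In the edgeR quasi-likelihood fit over all genes, 2 of the 7 tested members, GGP1 and DJ1E, had an adjusted p below 0.05, both higher, where 0.466% of the 16737 tested genes were called higher. DJ1A, GGP3, AT2G23960, DJ1B and DJ1D were not called. The groups did not overlap for 3 of the 7 tested members, GGP1, DJ1A and DJ1E, all higher, where 7.3% of tested genes showed such a separation upward. Since the set was chosen with this contrast known, nothing is read from these counts. With the replicate number as a block, a fit in which 1.24% of tested genes were called higher, DJ1A was called as well, with a log2 fold change of 0.96, and the members called were 3. DESeq2 called the same 3 members, where it called 1.31% of tested genes higher. The log2 ratios of RGF1 over Mock between libraries of the same number were 1.1, 0.83 and 0.95 for DJ1A, 2.18, 1.42 and 1.9 for GGP1, and 4.93, 3.04 and 2.42 for DJ1E. For GGP3 they were -0.04, -0.6 and 0.26, without a common sign. The call of GGP1 was lost without Mock replicate 1 or 3 or without RGF1 replicate 1 or 2, with log2 fold changes from 1.55 to 1.81 in those fits, and that of DJ1E was kept whichever library was left out.

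The 250 bases before the annotated start are shown for the 3 genes whose RGF1 libraries all lay above Mock, so that their promoter letters can be compared. Of these, DJ1A was not called in edgeR, and the 3 were picked by the same contrast. The windows are chr4:14920126-14920375 on the plus strand for GGP1, chr2:16235368-16235617 on the minus strand for DJ1E and chr3:5047126-5047375 on the plus strand for DJ1A, from TAIR10.1 (RefSeq). Capitals mark matches, on either strand, to TTGACC or TTGACT (the W-box core bound by WRKY factors), TGACG (bound by TGA factors), CACGTG (the G-box) and GCCGCC (the GCC-box bound by ethylene response factors).
GGP1: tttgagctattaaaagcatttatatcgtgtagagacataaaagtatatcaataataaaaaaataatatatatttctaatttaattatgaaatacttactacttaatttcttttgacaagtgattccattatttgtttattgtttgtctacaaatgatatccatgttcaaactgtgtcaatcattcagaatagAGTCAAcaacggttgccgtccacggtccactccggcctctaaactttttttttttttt
DJ1E: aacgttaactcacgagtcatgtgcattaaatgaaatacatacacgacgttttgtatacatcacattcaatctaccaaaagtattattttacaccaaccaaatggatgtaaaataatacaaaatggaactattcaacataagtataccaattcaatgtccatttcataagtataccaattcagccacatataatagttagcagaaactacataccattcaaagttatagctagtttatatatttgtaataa
DJ1A: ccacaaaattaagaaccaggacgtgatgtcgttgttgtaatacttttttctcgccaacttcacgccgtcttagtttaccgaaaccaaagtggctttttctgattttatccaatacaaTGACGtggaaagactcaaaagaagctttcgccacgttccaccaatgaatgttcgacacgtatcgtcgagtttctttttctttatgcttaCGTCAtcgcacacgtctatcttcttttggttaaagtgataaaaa
GGP1 held 1 TTGACT, read on the minus strand and beginning at position -58 from the start, DJ1A held 2 TGACG at -133 and -44 from the start, and DJ1E held none of the 5 motifs, so no motif was common to the 3 windows. Of 27443 promoters of the same length, 12.2% held TTGACC, 19.1% TTGACT, 18.6% TGACG, 6.49% CACGTG and 1.87% GCCGCC. No match overlapped another. DJ1B, which did not separate the groups, also held 2 TGACG. A match is a description of letters and not a binding site, and a missing match says only that the letters are not in the window.

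Genes that work next to the GGP peptidases were counted in lists chosen by function. The lists here and below were written with earlier results of these data known. Their counts and medians are therefore a description and not a test of the lists. In the core pathway of glucosinolates, 10 of 16 genes were tested. Of these, 9 had a positive log2 fold change, where 8168 of all 16737 tested genes did. The median was 1.01, against -0.01 over all tested genes. Of the 10, 0 were called in edgeR, 6 had an unadjusted edgeR p under 0.05, all higher, where 4.26% of tested genes were higher at that level, and 2 were called by DESeq2, 0 by limma voom and 2 by the block fit. The genes with the smallest p were CYP83B1, GSTF10, SUR1 and UGT74B1. The other tested genes did not all move alike. Log2 fold changes were 0.03 ± 0.42 for CYP79B2, 0.55 ± 0.83 for CYP79B3 and 0.44 ± 0.36 for GSTF9 (SE). They were 1.11 ± 0.48 for SOT16, 1.16 ± 0.51 for SOT17 and -0.71 ± 0.76 for SOT18 (SE). CYP79F1, CYP79F2, CYP83A1, GSTF11, GSTU20 and UGT74C1 did not pass the filter on low counts. CYP83B1, the oxidase of indolic aldoximes whose product is joined to glutathione upstream of GGP1, had 164, 284 and 169 CPM in Mock and 849, 468 and 313 CPM in RGF1 replicates 1 to 3, with edgeR adjusted p = 0.158 and 0.0244 with the block. GSTF10, a glutathione S-transferase, had a log2 fold change of 1.29 ± 0.36 (SE; edgeR adjusted p = 0.227, and 0.000478 with the block). SUR1, the C-S lyase that follows the peptidase, had 56.5, 79.6 and 67.7 CPM in Mock and 150, 105 and 126 CPM in RGF1 libraries (edgeR adjusted p = 0.234), and UGT74B1, the glucosyltransferase after it, 31.8, 71.4 and 38.1 against 160, 98.9 and 75.3 CPM (edgeR adjusted p = 0.256). For SUR1, UGT74B1 and CYP83B1 the groups did not overlap, as for 7.3% of tested genes upward.

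In the camalexin list, 3 of 5 genes were tested and 2 were called higher in edgeR, against 0.466% of tested genes. CYP71A12, CYP71B15 and GSTF6 had 0, 3 and 10 counts in the Mock libraries together and passed the low-count filter through their RGF1 libraries. A gene so low in Mock is tested only if it is higher after RGF1, so nothing is read from these calls or folds. The called genes were GSTF6 and CYP71A12, both already known to be higher in these libraries when the list was written. CYP71A13 and GSTU4 did not pass the filter. CYP71A13 had 0 counts in each library, and GSTU4 had 0 in each Mock library and 5, 10 and 24 counts in RGF1 replicates 1 to 3. With the block (1.24% of tested genes higher), with DESeq2 and without the low-count filter 3 were called. CYP71B15, which makes camalexin in the last step and is also called PAD3, had 3 counts in the Mock libraries together and 141 in the RGF1 libraries, with edgeR adjusted p = 0.0835 and 0.0344 with the block. The median log2 fold change of the 3 was 7.89 as fitted. The fitted values were 9.75 for CYP71A12, 5.56 for CYP71B15 and 7.89 for GSTF6. The Mock mean of each was below the mean floor of 3 counts per Mock library (0.376 CPM). Log2 ratios of mean CPM, with the Mock mean raised to that floor, were 5.21, 4.08 and 8.04 in the same order. Their median was 5.21, so the 2 medians belong to different genes and measures. Without RGF1 replicate 1 the list held 1 called gene.

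Among genes that make glutathione or break gamma-glutamyl bonds, 9 of 12 were tested, 1 was called higher, against 0.466% of tested genes, and the median log2 fold change was 0.18. The called gene was PCS1 (AT5G44070), a phytochelatin synthase that can also trim glutathione conjugates, at 119, 79.9 and 49.1 CPM in Mock and 251, 315 and 497 CPM in RGF1 replicates 1 to 3. Its groups did not overlap, and its log2 fold change was 2.1 ± 0.35 (SE), with edgeR adjusted p = 0.0148. The call of PCS1 was lost without Mock replicate 2 (edgeR adjusted p = 0.0993) and without RGF1 replicate 3 (0.0576). GSH1 and GSH2, the enzymes of glutathione synthesis, differed by 0.49 ± 0.25 (SE; edgeR adjusted p = 0.687) and 0.43 ± 0.31 (SE; 0.832) on the log2 scale. GGCT2;2, which degrades glutathione in the cytosol, differed by 0.18 ± 0.25 (SE; edgeR adjusted p = 0.936).

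The next list held genes named as glutathione-dependent glyoxalases, with D-lactate dehydrogenase, a route for methylglyoxal other than that of the DJ-1 proteins. Not every gene so named need act on methylglyoxal. The list gave 0 called genes in edgeR among 10 tested of 12, where 0.496% of all tested genes were called in either direction. In edgeR 0 had an unadjusted p under 0.05, and DESeq2, limma voom and the block fit each called 0. Their median log2 fold change was -0.2, with a range from -1.05 to 0.3. GLYI-2 had 58.1, 51.3 and 66.8 CPM in Mock and 51, 48.9 and 38.4 CPM in RGF1 replicates 1 to 3, with a log2 fold change of -0.35 ± 0.27 (SE; edgeR adjusted p = 0.848). Its RGF1 libraries lay below its Mock libraries without overlap, as for 6.18% of tested genes. GLYI-4, GLX2-1 and GLX2-4 differed by -1.05 ± 0.83, -0.38 ± 0.45 and 0.30 ± 0.42 (SE) on the log2 scale.

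Of 14 other genes with a class I glutamine amidotransferase domain, 12 were tested, 1 was called higher, against 0.466% of tested genes, and the median log2 fold change was 0.27. The called gene was ASB1 (AT1G25220), the amidotransferase subunit of anthranilate synthase in tryptophan synthesis, at 31.5, 28.3 and 36.2 CPM in Mock and 172, 62.5 and 215 CPM in RGF1 replicates 1 to 3 (log2 fold change 2.23 ± 0.39 SE, edgeR adjusted p = 0.0197). The call was lost with limma voom (adjusted p = 0.0579) and in edgeR without any library but RGF1 replicate 2, with edgeR adjusted p from 0.0519 to 0.128. ASB1 also has a copy, AT1G24807, that is 97.9% identical over 1104 bp, so the assignment of its reads is uncertain. With the block, which called 1.24% of tested genes higher, AT5G38200 and CTPS1 were called as well, with edgeR adjusted p of 0.00238 and 0.0178 against 0.288 and 0.470 without it. AT5G38200 had 170 CPM in RGF1 replicate 3 and at most 27 CPM in any other library. CTPS4 had a log2 fold change of -0.51 ± 0.35 (SE; edgeR adjusted p = 0.812), with RGF1 libraries below the Mock libraries without overlap, as for 6.18% of tested genes. DJ1C, the DJ-1 homologue needed for chloroplast development and not among the 10 genes, had a log2 fold change of 0.10 ± 0.63 (SE).

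**Figure D4:**
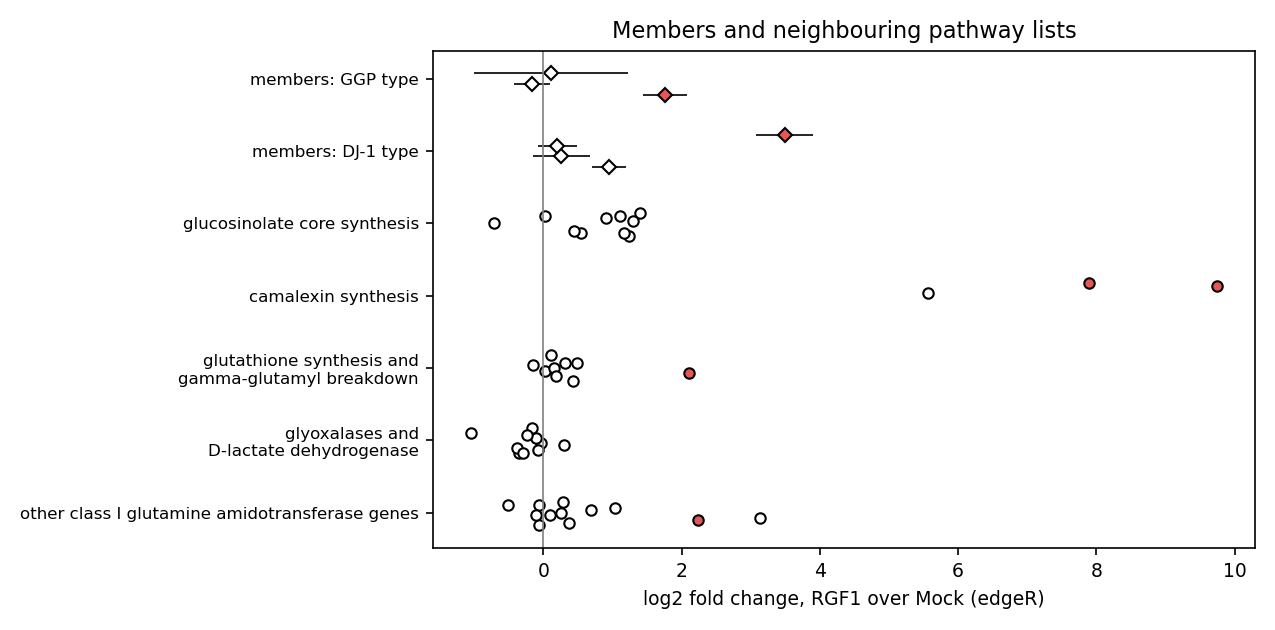
edgeR log2 fold change of RGF1 over Mock for the tested members (diamonds, with bars of 1 SE) and for the tested genes of 5 neighbouring pathway lists (circles, spread vertically for legibility), with red for an adjusted p below 0.05. DJ1E at 3.49 and GGP1 at 1.76 are red among the members, and the camalexin values rest on 0 to 10 Mock counts per gene. Of 10 glucosinolate genes 9 lie above 0 and 0 are red, where 8168 of 16737 tested genes lie above 0.

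The 5 non-member genes whose log2 CPM followed GGP1 most closely, among 14116 tested genes with a mean of at least 5 CPM, were AT3G01430, TOP3A (AT5G63920), AT5G41810, CCT2 (AT4G15130) and AT5G12850. Their Pearson r with GGP1 ranged from 0.982 to 0.988 over 6 libraries, which form 2 groups of 3, so that a gene higher after RGF1 in both can give a high r. Their own log2 fold changes were between 0.3 and 1.03, smaller than that of GGP1. None of them was called, with edgeR adjusted p from 0.597 to 0.847. For TOP3A and AT5G12850 the interval of 2 SE on each side included 0 (-0.21 to 1.01 and -0.17 to 0.77).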

How the data were processed

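Counts per gene were analysed from 6 RNA-seq libraries, 3 Mock and 3 RGF1. The authors deposited raw read counts, 1 table per library, with 30424 genes. TopHat2 2.1.1, HTSeq and DESeq2, with the build TAIR10, are listed without roles in the submitters' processing notes. Per the labels' protocols, libraries were made from cDNA amplified from 50 ng of RNA. The sources used here do not give the annotation release, strand use or multi-mapping. Positions, exons and sequences came from RefSeq TAIR10.1, which matched 30214 identifiers, the others being 88 chloroplast and 122 mitochondrial genes. Its build name differs from the submitters' TAIR10, and the count tables hold no coordinates to compare.

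The fit of RGF1 against Mock used edgeR 4.0.16 under R 4.3.3 (TMM, default expression filter, quasi-likelihood F test) on 16737 genes, with Benjamini-Hochberg adjustment over all of them and calls at adjusted p below 0.05. The SE was derived from the F statistic. Alternatives used limma 3.58.1 (voom) and DESeq2 1.42.0. Scripts were tested on simulated data. Proteins were aligned with Biopython 1.88 and copies searched with BLAST 2.17.0. The groups share replicate numbers. Log2 CPM deviations from group means correlated at 0.177, 0.214 and 0.299 between libraries of the same number and from -0.166 to -0.0433 between others. Deviations within a group sum to 0, so the negative values partly follow from the positive ones. With 3 libraries per group, few matchings are possible. The numbers were treated as pairs in the block fit, and whether they are true pairs is not known. No 2 libraries agreed within sampling noise (chi-square per degree of freedom of at least 19.7). Named genes were the 10 members, the called genes and up to 4 of smallest p per list, and the 5 genes most like GGP1. AT4G30560, AT3G02730, AT1G24807, WOX5, DJ1C and the remaining genes of the glucosinolate and camalexin lists were named outside that rule. Members and lists were chosen with earlier results of these data known.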

Additional observations from a re-analysis of the deposited data

How the results depend on the processing

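The median log2 fold change of all tested genes moved by less than 0.1 under each scaling. All 7 tested members moved by less than the replicate SD under the 13 alternatives, and those of GGP1, DJ1A, DJ1D and DJ1E stayed positive, from 1.55 to 2.2, 0.86 to 1.1, 0.06 to 0.37 and 3.09 to 3.76. GGP3, DJ1B and AT2G23960 changed sign in some of them. Members called numbered 2, and 3 with DESeq2 and with the replicate block. Without the low-count filter 176 genes were called higher and 46 lower, with DESeq2 219 and 75, and with the replicate block 208 and 94, against 78 and 5. Glucosinolate genes called were 2 without the low-count filter, with DESeq2 and with the replicate block, against 0. Other amidotransferase genes called were 2 without the filter, 3 with the replicate block and 0 with limma voom, against 1, and camalexin genes 1 with limma voom and 3 with DESeq2, the replicate block and no filter, against 2. The pairing changed no other call among the named members and list genes beyond DJ1A, CYP83B1, GSTF10, CYP71B15, AT5G38200 and CTPS1. Leaving out 1 library each gave 39 to 113 genes higher, 1 to 5 lower, 1 to 2 members, 1 to 2 camalexin genes, 0 to 1 glutathione genes and 0 to 1 other amidotransferase genes. GLX2-4 ranged from -0.08 (without RGF1 replicate 1) to 0.52 (without RGF1 replicate 3) when 1 library was left out. The cause of these differences was not tested. At 5421243 to 9495012 counts per library, AT4G30540, AT2G23970 and DJ1F were at or near the floor, and AT2G23960 gave no usable direction.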
